A study of Rattus norvegicus and Mus musculus with 22 samples.

Results

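Whole lungs of rats without a working Il6 gene (IL6KO), which encodes interleukin 6, a cytokine of inflammation, were compared between day 56 and day 7 of the Sugen-hypoxia (SuHx) model of pulmonary hypertension. The comparison takes 6 of the 22 samples of the series, 3 libraries labelled IL6KO SuHx at day 56 and 3 labelled IL6KO SuHx at day 7. All 6 share the genotype, given as IL6-KO and as IL6-/- in the labels, and the Sugen-hypoxia treatment. The days are an early and a late time of the model. No untreated lung is among the groups used, so the course of the model cannot be told apart from the rats' growing older between the days. The same days of wild-type (WT) SuHx lung, again 3 libraries each, are used only to show where IL6KO lung differs. The labels give no age, sex or strain, and do not say whether each library came from its own rat, so the p-values below measure the spread between these libraries, which may be technical.

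The study asks, by its title, about interleukin 6 signaling in CD4+ T cells in this disease. The model combines low oxygen with a Sugen compound, a blocker of VEGF receptors. Endothelial cells of the small lung arteries are injured, surviving cells and the smooth muscle of the vessel wall then proliferate, and matrix is laid down, which narrows the vessels over weeks. Interleukin 6 binds its receptor together with the shared chain gp130 (Il6st) and acts mainly through the transcription factor Stat3, whose target Socs3 feeds back on the same receptors.

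Il6 itself had 8, 5 and 2 counts at day 7 and 0, 2 and 3 counts at day 56, too few to be tested. WT lung was as low, with 5, 11 and 6 counts at day 7 and 6, 6 and 5 counts at day 56, so counts of this gene cannot check the genotype labels. Total counts ran from 16355574 to 19818902 in the 6 IL6KO libraries. Lung markers were high in all of them: Sftpc, which encodes surfactant protein C, lay between 11617 and 16564 CPM (counts scaled to a common library total), and Scgb1a1, the club cell secretory protein, between 6893 and 12672 CPM. The days stand in separate count tables of 22081 gene symbols each, of which 20230 are in both, and 57 of those were left out because every library of one table lay above 10 CPM and every library of the other below 1 CPM. Day and table therefore coincide in every value below and cannot be told apart by design.

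With edgeR's quasi-likelihood test 1141 of 13547 genes (8.42%) differed between the days in IL6KO lung at an adjusted p under 0.05, 494 higher at day 56 (3.65%) and 647 lower (4.78%). The median log2 fold change of all genes tested was 0.01. Here and below, a value given with an adjusted p is the log2 fold change of day 56 over day 7, levels are CPM scaled by the TMM method, and IL6KO values come from a fit of the 6 IL6KO libraries. Genes of cell division, DNA replication, collagens, other matrix proteins and smooth muscle contraction fell in numbers above these shares, and some genes of arterial endothelium and of the BMP pathway rose. The medians of T cell, ribosomal protein and heart muscle genes were within 0.1 of the median of all genes. The count of 1141 was 518 without day 7 library 1 and 454 without day 7 library 2. In WT lung, whose values here and below come from a fit of all 12 lung libraries, 1962 of 13808 genes (14.2%) were called, and 728 genes were called in the same direction in both genotypes, which is 63.8% of the IL6KO calls and 37.1% of the WT calls. These fits differ in size, so their counts are not like for like. A fit of the 6 WT libraries alone called 1378 genes, and the 12-library fit called 1069 genes in IL6KO lung.

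**Figure D1:**
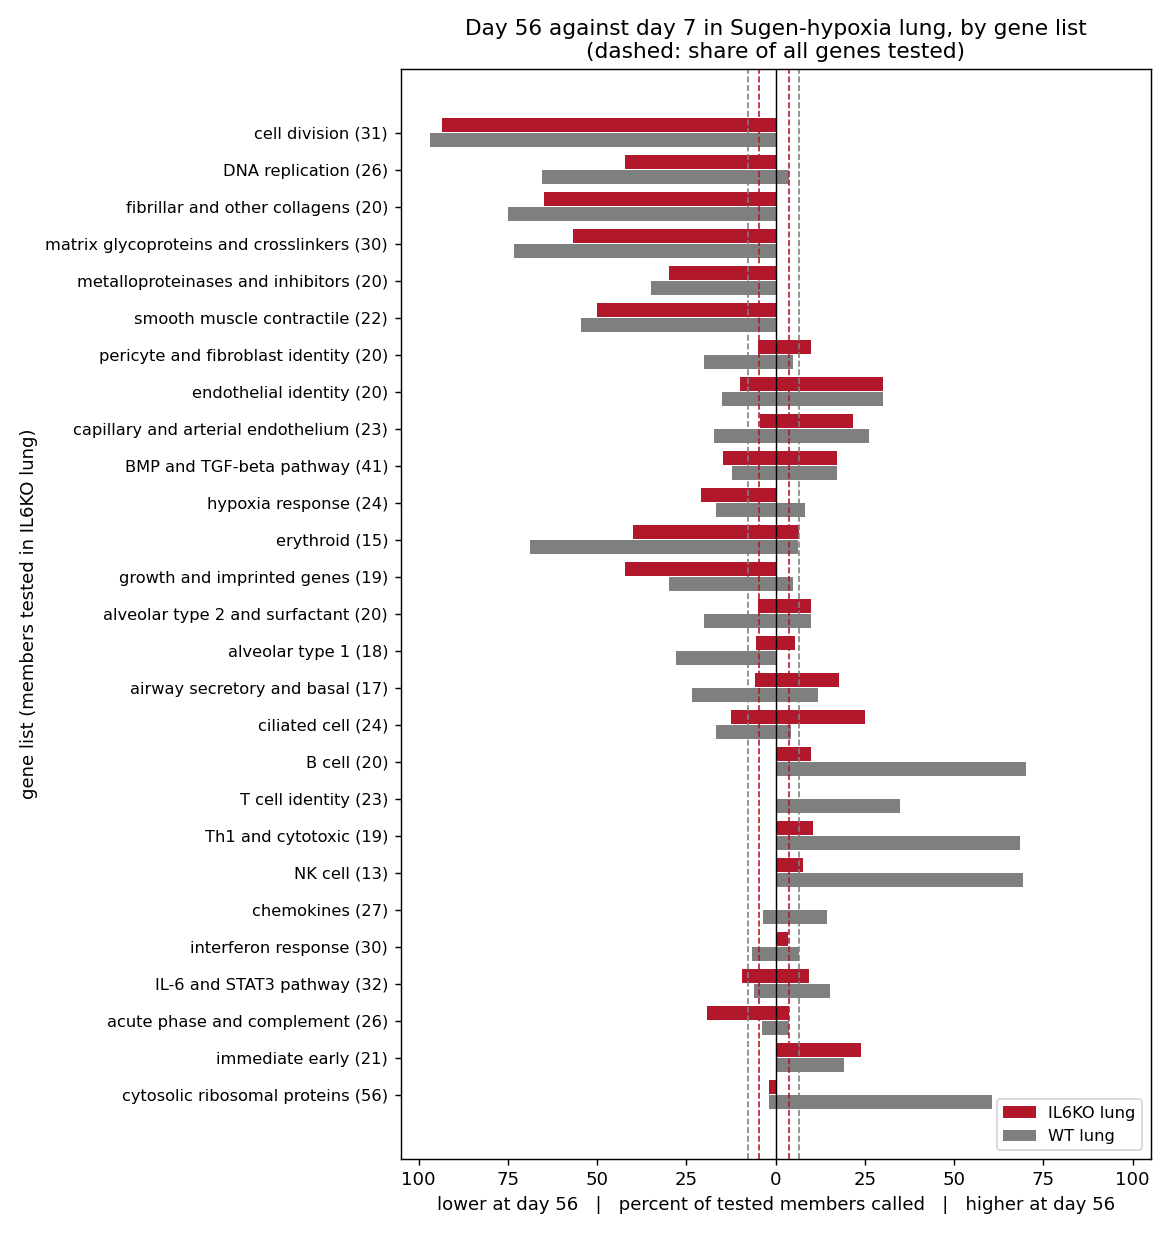
Percent of the tested members of each gene list that were called at day 56 against day 7, to the left when lower and to the right when higher, in IL6KO (red) and WT (grey) lung; dashed lines give the share over all genes tested and the number of members tested in IL6KO lung stands after each name. Cell division, matrix and smooth muscle lists extend to the left in both genotypes, and the bars of the B cell, T cell, cytotoxic, NK cell and ribosomal protein lists are long to the right in WT lung.

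Genes of cell division fell. Of 31 tested genes of mitosis and its control, 29 fell and 0 rose (0 higher at an unadjusted p under 0.05 and by DESeq2), with a median log2 fold change of -1.58. The fall ran from -0.70 (Aurka, the kinase Aurora A) to -2.42 (Anln, the cleavage-furrow protein anillin), these 2 named as the ends of the range. The summed level of the list was 772, 688 and 576 CPM at day 7 and 258, 278 and 316 CPM at day 56. No day 56 library reached the lowest day 7 library. Top2a, the topoisomerase that untangles chromosomes before they separate, had 67.5, 59.0 and 48.4 CPM at day 7 and 15.2, 17.8 and 20.9 CPM at day 56 (log2 fold change -1.71, SE 0.16, adjusted p = 0.00045). Mki67, a marker of cycling cells, had 86.7, 73.1 and 59.9 CPM at day 7 and 26.6, 32.2 and 35.3 CPM at day 56 (log2 fold change -1.24, SE 0.16, adjusted p = 0.0029). The levels of both genes at day 7 were above those at day 56 in every library.

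Cdk1, the kinase that drives entry into mitosis, had 32.6, 29.1 and 24.4 CPM at day 7 and 7.20, 7.92 and 9.15 CPM at day 56 (log2 fold change -1.84, SE 0.15, adjusted p = 0.00018). Cdc20, which activates the ubiquitin ligase that ends metaphase, had 23.8, 22.1 and 19.1 CPM at day 7 and 7.39, 6.35 and 6.99 CPM at day 56 (log2 fold change -1.66, SE 0.13, adjusted p = 0.00016). Tpx2 and Racgap1, needed for the spindle and for cytokinesis, changed by -2.0 and -1.49. All 6 of these genes kept their call whichever library was left out, and the number of members that fell stayed between 26 and 30. In WT lung 30 of the 31 fell, with a median of -1.94, where 7.77% of all genes were called lower. In bulk lung, fewer dividing cells and less RNA per dividing cell cannot be told apart.

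Promoters of genes with peak expression in mitosis often carry a CHR element next to CCAAT boxes, and promoters of S-phase genes often carry an E2F site. Since the mitotic genes moved together, the windows from 250 bases before to 50 bases after the annotated start of 4 of them, and of the replication gene Mcm5, are shown from the RefSeq annotation of the rat assembly GRCr8, 5′ to 3′ on the strand of the gene. Capitals mark the letters of a match on either strand to any of 3 motifs. The motif used for the CHR element was TTTGAA. The box bound by the factor NF-Y was searched as CCAAT. The motif used for the E2F factors was GCGGGAA. A match on the other strand shows as the reverse complement. Top2a lies at chr10:84473044-84473343 (minus strand), Mki67 at chr1:199952544-199952843 (minus), Cdk1 at chr20:19265043-19265342 (plus), Cdc20 at chr5:137255750-137256049 (minus) and Mcm5 at chr19:13488563-13488862 (plus).
Top2a: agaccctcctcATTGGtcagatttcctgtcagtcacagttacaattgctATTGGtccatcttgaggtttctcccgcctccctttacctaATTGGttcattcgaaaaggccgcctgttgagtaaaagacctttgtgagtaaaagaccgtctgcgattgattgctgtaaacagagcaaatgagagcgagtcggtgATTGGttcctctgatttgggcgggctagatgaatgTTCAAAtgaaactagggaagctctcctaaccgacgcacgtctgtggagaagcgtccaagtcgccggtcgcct
Mki67: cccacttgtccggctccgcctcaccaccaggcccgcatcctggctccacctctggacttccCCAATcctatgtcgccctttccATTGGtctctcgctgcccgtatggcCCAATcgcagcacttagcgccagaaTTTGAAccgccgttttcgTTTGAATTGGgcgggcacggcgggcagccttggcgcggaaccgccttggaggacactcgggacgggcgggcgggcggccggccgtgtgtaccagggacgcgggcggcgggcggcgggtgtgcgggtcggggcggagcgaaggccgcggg
Cdk1: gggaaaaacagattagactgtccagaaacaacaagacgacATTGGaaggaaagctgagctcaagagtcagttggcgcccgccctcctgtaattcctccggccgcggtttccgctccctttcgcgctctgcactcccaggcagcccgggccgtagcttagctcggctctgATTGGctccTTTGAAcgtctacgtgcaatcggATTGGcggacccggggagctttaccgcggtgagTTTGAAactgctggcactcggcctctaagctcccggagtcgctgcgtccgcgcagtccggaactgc
Cdc20: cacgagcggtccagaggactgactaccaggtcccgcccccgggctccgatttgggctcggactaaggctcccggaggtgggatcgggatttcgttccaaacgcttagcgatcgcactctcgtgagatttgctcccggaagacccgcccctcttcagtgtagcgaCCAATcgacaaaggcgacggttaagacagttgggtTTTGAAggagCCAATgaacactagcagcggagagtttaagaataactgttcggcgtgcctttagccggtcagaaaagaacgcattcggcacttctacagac
Mcm5: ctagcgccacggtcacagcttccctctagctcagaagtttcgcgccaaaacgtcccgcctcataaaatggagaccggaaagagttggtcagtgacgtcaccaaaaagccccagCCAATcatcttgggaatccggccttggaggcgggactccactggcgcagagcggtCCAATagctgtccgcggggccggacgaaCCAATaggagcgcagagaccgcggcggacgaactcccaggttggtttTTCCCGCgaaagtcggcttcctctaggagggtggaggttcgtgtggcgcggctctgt

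Exactly 1 window was matched by symbol for 23 of the 29 cell division genes that fell, and listed genes without exactly 1 window were left out. The promoters of the whole table and of tested genes were not limited to 1 a symbol. TTTGAA stood in 16 of these 23 (69.6%), against 18.3% of the 33469 promoters of the whole table and 12.1% of the 11626 promoters of genes tested in IL6KO lung. CCAAT stood in 16 of 23 (69.6%), against 36.9% of the promoters of tested genes. It was as common in the matched replication genes that fell, 5 of 7 (71.4%). Among windows of collagen and of other matrix genes that fell, 2 of 8 (25%) and 4 of 11 (36.4%) held it. Both motifs together were in 12 of 23 (52.2%), against 4.95%. GCGGGAA was in 1 of 23 (4.35%), against 7.72%, and in 3 of the 7 matched replication genes that fell (42.9%). TTTGAA was in 0 of the 8 windows of collagen genes and 0 of the 11 windows of other matrix genes that fell. A match is a description of the letters, not evidence of a bound site.

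A smaller share of DNA replication genes fell, 11 of 26, and 0 rose (0 higher at an unadjusted p under 0.05 and by DESeq2). Their median was -0.44. Mcm5, a subunit of the replicative helicase, had 26, 22.8 and 17.5 CPM at day 7 and 9.90, 12.3 and 10.2 CPM at day 56 (log2 fold change -1.05, SE 0.17, adjusted p = 0.0077). Rrm2, the small subunit of the enzyme that makes deoxyribonucleotides, had 9.65, 10.9 and 7.01 CPM at day 7 and 2.06, 3.02 and 2.21 CPM at day 56 (log2 fold change -1.93, SE 0.24, adjusted p = 0.0019). For both genes every day 7 library was above every day 56 library. Uhrf1, which couples replication to DNA methylation, and Cdt1, which licenses origins, changed by -1.24, adjusted p = 0.0012 and by -0.98, adjusted p = 0.0074. The 4 named genes kept their calls, but the count depended on the libraries: 4 fell without day 7 library 2, 5 without day 7 library 1 and 7 each without day 56 library 1 or 3.

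**Figure D2:**
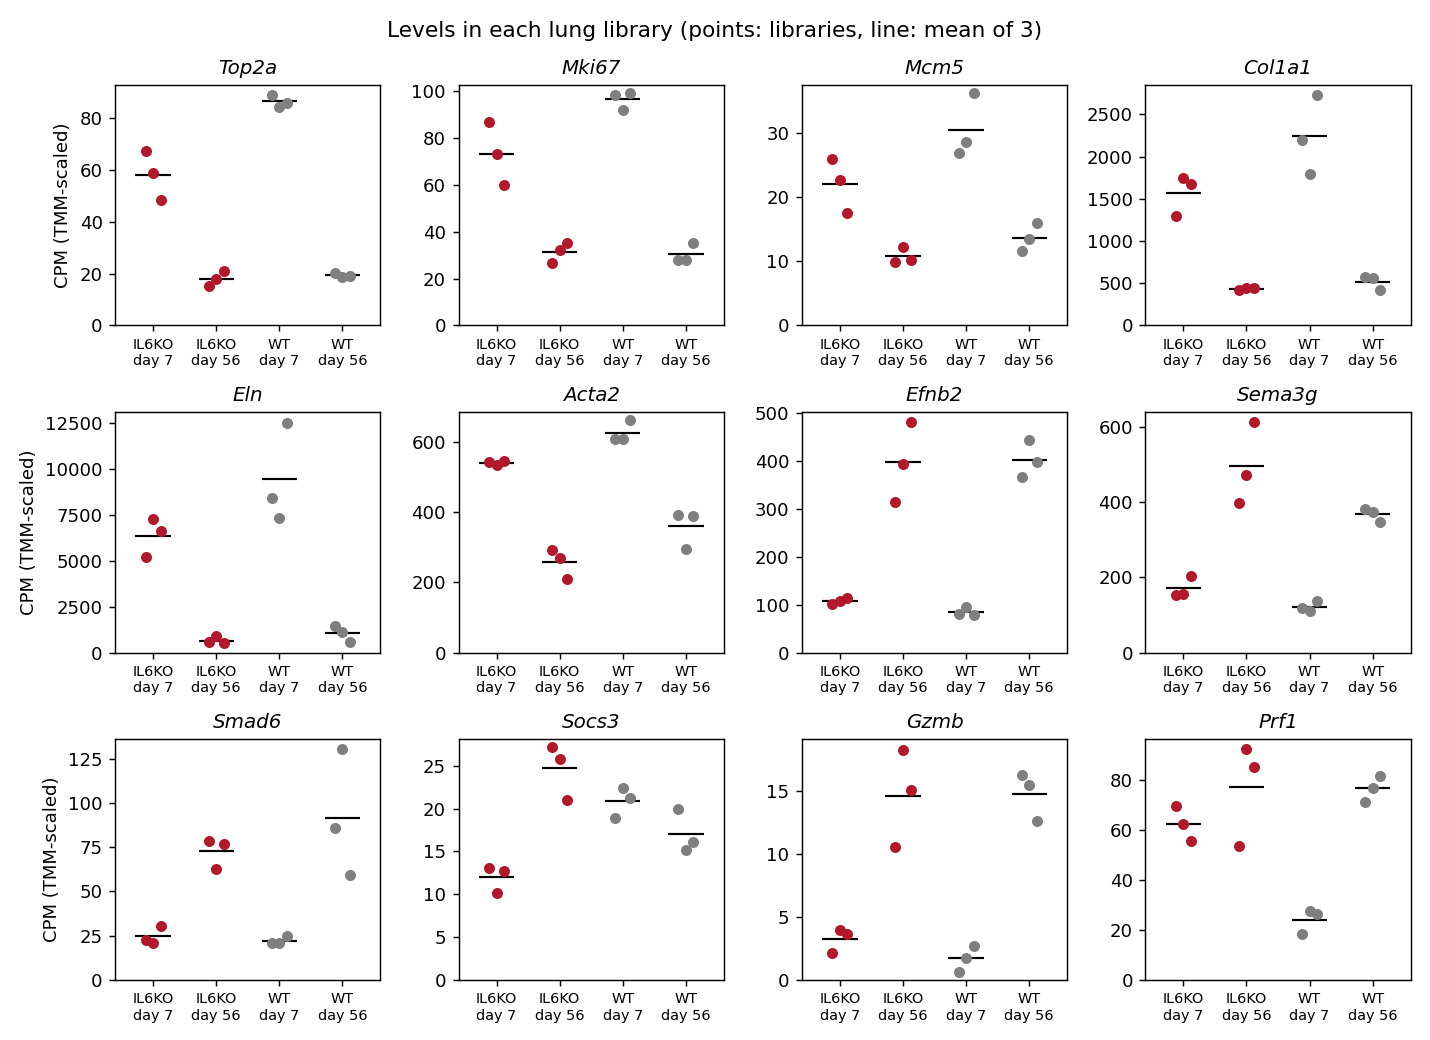
TMM-scaled CPM of 12 genes in every lung library (points) with the mean of 3 libraries (line), IL6KO in red and WT in grey. In IL6KO lung the 2 days do not overlap for any of these genes except Prf1, whose lowest day 56 library has 53.5 CPM and lowest day 7 library 55.3 CPM.

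Collagens and the proteins that assemble them into fibres fell. Of 20 tested collagen genes 13 fell and 0 rose (0 higher at an unadjusted p under 0.05 and by DESeq2), with a median of -0.62. Col1a1, a chain of the main fibrillar collagen, had 1299.7, 1745 and 1676 CPM at day 7 and 415, 442 and 448 CPM at day 56 (log2 fold change -1.87, SE 0.12, adjusted p = 4.9e-05). Its 3 day 56 libraries lay close together and far below the lowest day 7 library. Col3a1, the fibrillar collagen of vessels and soft tissue, had 3685, 4199 and 3954 CPM at day 7 and 1656, 1638 and 1816 CPM at day 56 (log2 fold change -1.23, SE 0.09, adjusted p = 0.00010). Col4a1, a chain of the collagen sheet in basement membranes, had 3340.5, 3232 and 3318 CPM at day 7 and 1141, 1082 and 1275 CPM at day 56 (log2 fold change -1.51, SE 0.09, adjusted p = 3.0e-05), and its partner Col4a2 changed by -1.31. For none of the 4 did the days overlap, and all 4 were called whichever library was left out.

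Elastin had the largest change among matrix genes. Eln had 5183, 7251 and 6633 CPM at day 7 and 556, 887 and 528 CPM at day 56 (log2 fold change -3.29, SE 0.24, adjusted p = 0.00028), a fall of 9.76-fold. Of 30 tested matrix glycoproteins and crosslinking enzymes 17 fell and 0 rose (0 higher at an unadjusted p under 0.05 and by DESeq2), with a median of -0.82. Sparc, a collagen-binding protein of growing matrix, had 6758, 7125 and 7279 CPM at day 7 and 3295, 2835 and 2956 CPM at day 56 (log2 fold change -1.23, SE 0.09, adjusted p = 9.5e-05). Loxl2, an enzyme that crosslinks collagen, had 44.2, 49.1 and 44.9 CPM at day 7 and 18.7, 19.5 and 19.8 CPM at day 56 (log2 fold change -1.27, SE 0.09, adjusted p = 7.3e-05). Bgn, the small proteoglycan biglycan, changed by -1.14, adjusted p = 0.00063. In each of these genes the day 56 libraries were all below the day 7 libraries, as they were for 23 of the 30 members, against 13.9% of all genes tested.

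Of 20 metalloproteinases and inhibitors 6 fell (30% against 4.78% of all genes). Among them were Adamts12 (-1.44, adjusted p = 0.00022), the procollagen peptidase Adamts2 (-1.05, adjusted p = 0.0010), Adam12 (-1.67, adjusted p = 0.0041) and the membrane collagenase Mmp14 (-1.03, adjusted p = 0.0092). Adamts13, the protease that trims von Willebrand factor, had 1.13, 0.911 and 1.84 CPM at day 7 and 2.38, 2.30 and 2.00 CPM at day 56 and was not called (log2 fold change 0.75, SE 0.30, adjusted p = 0.17). The summed level of the collagen list was 14643, 15944 and 15943 CPM at day 7 and 7168, 6895 and 7648 CPM at day 56, so that the days did not overlap. In WT lung 15 of 20 collagens, 22 of 30 matrix genes and 7 of 20 metalloproteinase genes fell.

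Contractile genes of smooth muscle also fell. Acta2, smooth muscle actin, had 542, 535 and 545 CPM at day 7 and 293, 269.9 and 210.4 CPM at day 56 (log2 fold change -1.08, SE 0.12, adjusted p = 0.0013). The day 7 libraries were nearly level and the day 56 libraries all lay at or below 293 CPM. Actg2, the enteric form of this actin, had 135, 136 and 135 CPM at day 7 and 69.4, 55.2 and 41.7 CPM at day 56 (log2 fold change -1.30, SE 0.16, adjusted p = 0.0031). Myl9, the regulatory light chain of smooth muscle myosin, and Smtn, smoothelin, changed by -0.86, adjusted p = 0.0011 and by -0.75, adjusted p = 0.0017. Together 11 of 22 contractile genes fell and 0 rose (0 higher at an unadjusted p under 0.05 and by DESeq2), with a median of -0.46, and the count was 6 without day 7 library 1 or 2. In WT lung 12 of 22 fell, with a median of -0.48.

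Of 20 pericyte and fibroblast genes 2 rose and 1 fell (10% and 5% against 3.65% and 4.78% of all genes), and DESeq2 called 3 in each direction. Rgs5, a regulator of G-protein signaling typical of pericytes, had 14.9, 15.6 and 15.1 CPM at day 7 and 29.4, 39.4 and 31.6 CPM at day 56 (log2 fold change 1.12, SE 0.13, adjusted p = 0.0012). Lrat, which stores retinol as esters, rose by 1.15 on the log2 scale, and Cspg4, the pericyte proteoglycan NG2, changed by -0.84, adjusted p = 0.00092. Pericyte markers thus went both ways, and the median of the list was -0.34. The number that fell was 2 without day 7 library 1 or day 56 library 1 or 2, and 5 without day 56 library 3.

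Several genes of arterial endothelium rose. Efnb2, the ephrin that marks arterial endothelium, had 102, 109 and 114 CPM at day 7 and 315, 395 and 483 CPM at day 56 (log2 fold change 1.86, SE 0.15, adjusted p = 0.00021). Sema3g, a semaphorin of arterial endothelium, had 152, 156 and 204 CPM at day 7 and 397, 472 and 613 CPM at day 56 (log2 fold change 1.52, SE 0.18, adjusted p = 0.0022). In both genes the lowest day 56 library was far above the highest day 7 library. Hey1, a Notch target, had 5.72, 5.99 and 10.3 CPM at day 7 and 24.1, 15.7 and 15.4 CPM at day 56 (log2 fold change 1.31, SE 0.27, adjusted p = 0.025). Plvap, which forms the diaphragms of endothelial pores, and Lyve1, a hyaluronan receptor of lymphatic endothelium and of some macrophages, rose by 1.02 and 1.75.

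These 5 were the members that rose among 23 tested capillary and arterial genes (21.7% against 3.65% of all genes), and Fabp4, a fatty acid carrier of capillaries, macrophages and fat, fell (-0.92, adjusted p = 0.021). The list's median was -0.09, and 17 of the 23 were not called. The calls of Hey1 and Fabp4 were lost without day 7 library 1 or 2, that of Fabp4 also without day 56 library 2, and that of Lyve1 without any 1 of the 3 day 7 libraries. All of Efnb2, Sema3g, Hey1, Plvap and Lyve1 were also called in WT lung, at 2.25, 1.58, 2.50, 1.31 and 1.72.

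Among 20 genes of general endothelial identity 6 rose and 2 fell (30% and 10% against 3.65% and 4.78% of all genes). The median was 0.08. Clec14a, an endothelial surface lectin, had 326, 345 and 313 CPM at day 7 and 568, 712 and 722 CPM at day 56 (log2 fold change 1.01, SE 0.11, adjusted p = 0.0011). Ptprb, the endothelial phosphatase that restrains the angiopoietin receptor, had 316, 326 and 331 CPM at day 7 and 610.2, 622 and 713 CPM at day 56 (log2 fold change 0.99, SE 0.09, adjusted p = 0.00032), and Vwf, von Willebrand factor, changed by 0.48, adjusted p = 0.0084. Egfl7, a factor secreted by endothelium, and Emcn, the sialomucin endomucin, fell (-0.66, adjusted p = 0.011 and -0.47, adjusted p = 0.022). The number that rose was 2 without day 7 library 2 and 3 without day 7 library 1, and Vwf lost its call without day 7 library 2 and Emcn without day 7 library 1 or 2 or day 56 library 2. The summed endothelial level was 6847, 6666 and 7027 CPM at day 7 and 7840.0, 8042 and 8499.7 CPM at day 56, higher in each day 56 library than in any day 7 library.

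The BMP pathway, whose receptor Bmpr2 is the most often mutated gene in heritable pulmonary arterial hypertension, had members that rose and members that fell. Bmpr2 had 204, 202 and 199 CPM at day 7 and 316, 310.0 and 363 CPM at day 56 (log2 fold change 0.69, SE 0.09, adjusted p = 0.0020), with no overlap between the days. Smad6, an inhibitor that BMP signals induce, had 22.3, 21.1 and 30.5 CPM at day 7 and 78.5, 62.8 and 76.7 CPM at day 56 (log2 fold change 1.55, SE 0.15, adjusted p = 0.00063). Bmp6, a ligand, had 39.7, 39.9 and 46.9 CPM at day 7 and 79.9, 77.1 and 78.8 CPM at day 56 (log2 fold change 0.88, SE 0.09, adjusted p = 0.00057). On the TGF-beta side Ltbp2, a matrix protein related to the latent TGF-beta binding proteins, had 755, 857 and 807 CPM at day 7 and 337, 359.8 and 406 CPM at day 56 (log2 fold change -1.15, SE 0.10, adjusted p = 0.00027). Over the 41 tested genes of both pathways 7 rose and 6 fell (17.1% and 14.6% against 3.65% and 4.78% of all genes). Their median was -0.08. Without day 7 library 2 the counts of genes that rose and fell were 3 and 1. They were 4 and 3 without day 7 library 1 or 3, 5 and 2 without day 56 library 2, and 7 and 3 without day 56 library 3. In WT lung Smad6 and Bmp6 rose too (2.07 and 0.93), while Bmpr2 changed by 0.25, adjusted p = 0.38; the interaction for Bmpr2 was 0.46, SE 0.25, adjusted p = 0.71.

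Vasoactive genes moved singly. Npr3, the clearance receptor of natriuretic peptides, had 6.91, 5.34 and 6.12 CPM at day 7 and 49.9, 20.8 and 19.4 CPM at day 56 (log2 fold change 2.27, SE 0.41, adjusted p = 0.024), with day 56 library 1 the highest and no overlap between the days. Ace, the angiotensin-converting enzyme of lung capillaries, rose (0.52, adjusted p = 0.0057), and the angiotensin receptor Agtr1a and the potassium channel Kcnk3 fell (-0.43, adjusted p = 0.037 and -0.39, adjusted p = 0.042). Of 24 tested genes of these pathways these 4 were called, 8.33% in each direction against 3.65% higher and 4.78% lower over all genes. The call of Npr3 was lost without any 1 of the day 7 libraries, that of Ace without day 7 library 2, that of Agtr1a in 5 and that of Kcnk3 in all 6 of the fits that leave out a library. Of 21 genes of the VEGF, angiopoietin and PDGF systems the lymphatic growth factor Vegfc fell, with 49.2, 52.1 and 47.6 CPM at day 7 and 24.9, 30.2 and 20.0 CPM at day 56 (log2 fold change -1.0, SE 0.14, adjusted p = 0.0044), the ligand Pdgfb fell (-0.43, adjusted p = 0.015) and the angiopoietin receptor Tek rose (0.70, adjusted p = 0.014). These 3 calls made 4.76% of the list higher and 9.52% lower, against 3.65% and 4.78% of all genes. Only Vegfc among these 3 was called whichever library was left out.

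Transcript length moved with the day in IL6KO lung, and several of the genes above have long transcripts. The longest mouse transcript of the same symbol was used for length, which was found for 12448 of the 13547 genes (91.9%). Among 711 genes of 8000 bases or more, 119 rose (16.7%) and 25 fell, with a median of 0.19, and among 2953 genes under 2000 bases 45 rose (1.52%) and 138 fell, with a median of -0.04. In WT lung the medians of these classes were -0.09 and 0.07. Taken by library, as the median log2 level of the long minus the short class relative to the mean of all 12 lung libraries, the IL6KO values were 0.06, 0.03 and -0.04 at day 7 and 0.19, 0.15 and 0.38 at day 56. The WT day 56 values were -0.39 and -0.37 in libraries 1 and 2 and 0.19 in library 3. Ptprb, Vwf, Bmpr2 and, below, Lifr, Dnah5, Dnah9, Dnah11 and Hydin are in the long class, and the part of length in their change was not tested. Efnb2, Sema3g, Smad6, Clec14a and Bmp6 are not, and of the 31 cell division genes 2 are.

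**Figure D3:**
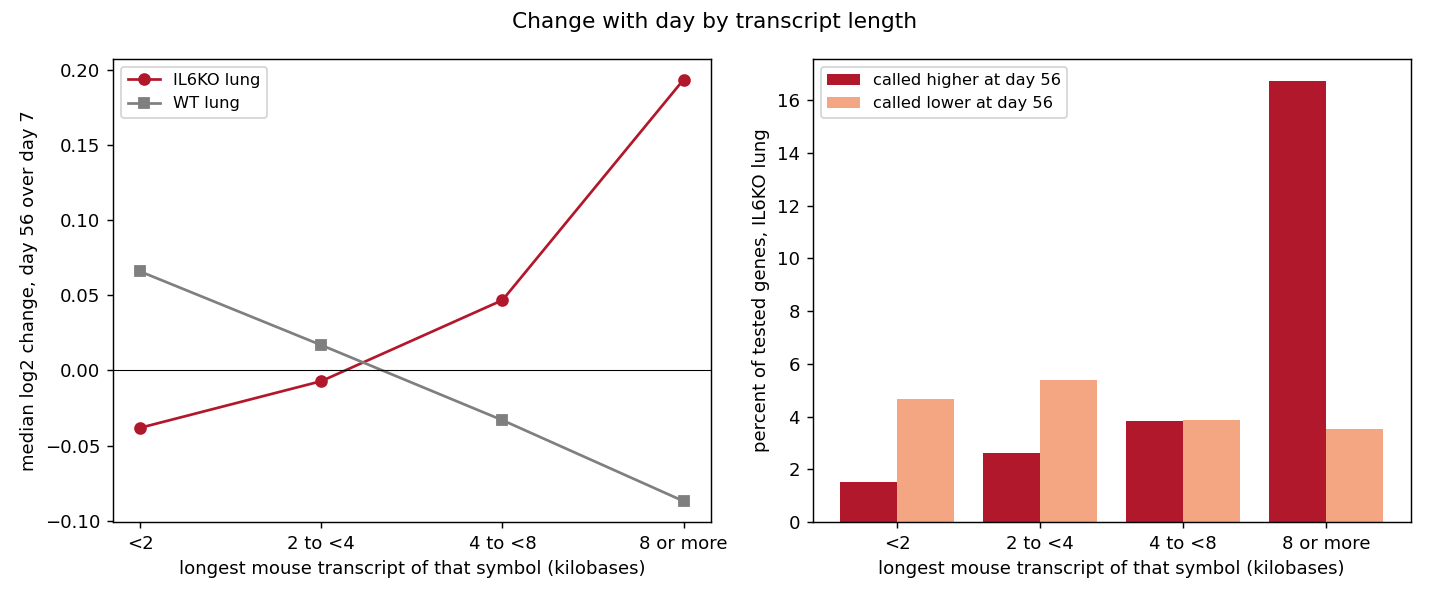
Left, median log2 change from day 7 to day 56 by transcript length class in IL6KO (red) and WT (grey) lung. Right, percent of tested genes in IL6KO lung called higher or lower; 16.7% of genes of 8 kilobases or more were called higher against 1.52% of those under 2 kilobases.

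Of 24 hypoxia response genes 5 fell (20.8% against 4.78% of all genes). Egln3, a prolyl hydroxylase that low oxygen induces, had 13.6, 13.5 and 10.3 CPM at day 7 and 6.37, 6.29 and 4.47 CPM at day 56 (log2 fold change -1.14, SE 0.19, adjusted p = 0.0092). The glycolytic genes Eno1, Aldoa and Ldha fell by less (-0.52, -0.55 and -0.44), and Bnip3, a mitophagy receptor, changed by -0.75, adjusted p = 0.020. Egln3 and Eno1 were called whichever library was left out. The other 3 were not, and 2 members of the list fell without day 7 library 1 or 2, 3 without day 56 library 2 and 8 without day 56 library 1.

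Erythroid genes were low at day 56. Gata1, the transcription factor of red cell precursors, had 65, 23 and 26 counts at day 7 and 0, 0 and 0 counts at day 56, which is at least 13.4-fold lower if 3 counts are allowed to each day 56 library. Kel, a blood group protease of red cells, had 11.5, 5.99 and 3.23 CPM at day 7 and 0.964, 0.544 and 1.31 CPM at day 56 (log2 fold change -2.87, SE 0.53, adjusted p = 0.018), and Rhd, the Rh protein, had 13.6, 6.44 and 5.68 CPM at day 7 and 2.57, 2.54 and 2.52 CPM at day 56 (log2 fold change -1.77, SE 0.35, adjusted p = 0.020). In these genes day 7 library 1 was the highest of the 6. Of 15 tested erythroid genes 6 fell and 1, the factor Tal1 that endothelium also expresses, rose. These are 40% and 6.67%, against 4.78% and 3.65% of all genes. The median was -1.79, also with Gata1 set to the level of 3 counts. The summed level of the list was 8382, 3273 and 4110.4 CPM at day 7 and 1208, 829 and 2848 CPM at day 56, and the number that fell was 1 without day 56 library 1 or 2 and 2 without day 7 library 2.

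Of 19 growth and imprinted genes 8 fell (42.1% against 4.78% of all genes), with a median of -0.42. Mest, an imprinted gene of growing tissue, had 11.8, 11.4 and 10.2 CPM at day 7 and 1.61, 2.18 and 2.58 CPM at day 56 (log2 fold change -2.39, SE 0.20, adjusted p = 0.00021). Igfbp3, which binds insulin-like growth factors, had 46.6, 47.8 and 42.6 CPM at day 7 and 30.5, 27.3 and 27.1 CPM at day 56 (log2 fold change -0.71, SE 0.09, adjusted p = 0.0027). The growth suppressor Ndn and the sarcoglycan Sgce changed by -0.80, adjusted p = 0.010 and by -0.42, adjusted p = 0.021. Mest and Igfbp3 were called whichever library was left out, and the count was 2 without day 7 library 2, 3 without day 7 library 1, 4 without day 56 library 3 and 5 without day 7 library 3 or day 56 library 2.

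Of 20 genes of alveolar type 2 cells, S100g and the lamellar body protein Lamp3 rose and the fatty acid carrier Fabp5 fell, and of 18 genes of type 1 cells, Rtkn2 rose and Emp2 fell, where 8.42% of all genes were called. Of these 5 calls that of S100g (0.70, adjusted p = 0.0034) held whichever library was left out, and those of Lamp3, Fabp5 and Emp2 were each lost in at least 5 of the 6 such fits. Sftpc had 12764, 11617 and 14759 CPM at day 7 and 16564, 13768 and 14399.8 CPM at day 56 (log2 fold change 0.18, SE 0.11, adjusted p = 0.39), and its days overlapped. In the airways Scgb1a1 had 7272, 6893 and 7850.0 CPM at day 7 and 12672, 11518 and 10556 CPM at day 56 (log2 fold change 0.64, SE 0.10, adjusted p = 0.0056), while the related secretoglobin Scgb3a2 had 496, 508 and 595 CPM at day 7 and 331, 330.2 and 228 CPM at day 56 (log2 fold change -0.86, SE 0.15, adjusted p = 0.013). The days did not overlap for either, and Scgb3a2 lost its call without day 7 library 3. Slpi, an antiprotease of airway secretions, had 0.357, 1.82 and 1.17 CPM at day 7 and 1.41, 1.09 and 1.52 CPM at day 56 and was not called (log2 fold change 0.27, SE 0.48, adjusted p = 0.80).

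Among 24 genes of ciliated cells 6 rose and 3 fell (25% and 12.5% against 3.65% and 4.78% of all genes). The axonemal dyneins Dnah9, Dnah11 and Dnah5 rose by 1.01, 0.79 and 0.83, and Hydin, a protein of the central pair, by 0.80. All 4 are in the long transcript class. Mcidas and Ccno, which drive the making of centrioles in new ciliated cells, fell (-1.29, adjusted p = 0.032 and -1.61, adjusted p = 0.040), as did the tubulin Tubb4b (-0.40, adjusted p = 0.022). The 3 falls were each lost in at least 3 of the 6 fits that leave out a library, Mcidas in all 6.

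Genes of T cell identity gave no call. Of 23 T cell identity genes 0 were called by edgeR, by DESeq2 or by limma-voom, 2 higher and 2 lower had an unadjusted p under 0.05, and the median was 0.08. Cd3e, a chain of the T cell receptor complex, had 8.52, 8.46 and 6.90 CPM at day 7 and 4.57, 6.23 and 5.94 CPM at day 56 (log2 fold change -0.52, SE 0.18, adjusted p = 0.12), and Cd4 had 30.9, 34.2 and 25.4 CPM at day 7 and 31.1, 42.6 and 53.9 CPM at day 56 (log2 fold change 0.48, SE 0.20, adjusted p = 0.21). Of 19 genes of Th1 and cytotoxic cells 2 rose (10.5% against 3.65% of all genes). Gzmb, the protease granzyme B, had 2.14, 3.97 and 3.62 CPM at day 7 and 10.5, 18.3 and 15.1 CPM at day 56 (log2 fold change 2.16, SE 0.28, adjusted p = 0.0029), with every day 56 library above every day 7 library. Il12rb2, a chain of the interleukin 12 receptor, changed by 0.70, adjusted p = 0.039, a call lost in all 6 fits that leave out a library. Prf1, perforin, which makes the pore through which granzymes act, had 69.3, 62.1 and 55.3 CPM at day 7 and 53.5, 92.4 and 84.9 CPM at day 56, overlapping between the days (log2 fold change 0.29, SE 0.20, adjusted p = 0.44).

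Of 20 B cell genes 2 rose and 0 fell (10% against 3.65% of all genes higher). Bank1, an adaptor of B cell receptor signaling, had 4.59, 4.75 and 2.95 CPM at day 7 and 12.9, 14.4 and 27.8 CPM at day 56 (log2 fold change 2.16, SE 0.34, adjusted p = 0.011), and the factor Spib rose (0.82, adjusted p = 0.020). Of 13 NK cell genes 1 rose (7.69%), the receptor Ncr3 (1.35, adjusted p = 0.017). Bank1 lost its call without day 7 library 1, Spib and Ncr3 each in 3 fits that leave out a library. Of 27 chemokines 0 were called by edgeR or limma-voom, 3 higher and 6 lower had an unadjusted p under 0.05, and DESeq2 called 2 in each direction. Of 30 interferon response genes edgeR called 1, Gbp4 (0.75, adjusted p = 0.024), a call lost in 3 of the fits that leave out a library. In that list 5 higher and 2 lower had an unadjusted p under 0.05, and DESeq2 called 3 higher and 2 lower.

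Myeloid lists gave few genes, where 3.65% of all genes were called higher and 4.78% lower. Of 26 monocyte and interstitial macrophage genes 3 rose (11.5%) and 1 fell (3.85%). Of 14 alveolar macrophage genes 0 rose and 2 fell (14.3%). The dendritic cell (16 genes) and neutrophil lists each had 6.25% higher and 6.25% lower. The mast cell and eosinophil list had 20% higher and 0 lower. Fscn1, fascin, which mature dendritic cells use to form processes, had 12.6, 12.2 and 14.9 CPM at day 7 and 4.76, 3.75 and 4.63 CPM at day 56 (log2 fold change -1.61, SE 0.15, adjusted p = 0.00049), and Clec9a, a receptor of cross-presenting dendritic cells, rose (0.96, adjusted p = 0.015). Cd177 rose and S100a8 fell among 16 neutrophil genes (0.63, adjusted p = 0.016 and -0.57, adjusted p = 0.038), so that the neutrophil list showed no common direction. Gata2 and the histamine-making enzyme Hdc rose among 10 genes of mast cells and eosinophils (0.69, adjusted p = 0.022 and 0.94, adjusted p = 0.040), while the mast cell tryptase Tpsab1 and chymase Cma1 were lower without passing the test (-1.17, adjusted p = 0.081 and -0.80, adjusted p = 0.098). Of these genes Fscn1 alone was called whichever library was left out.

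In the pathway of the missing cytokine 3 of 32 tested genes rose and 3 fell (9.38% each, against 3.65% and 4.78% of all genes). The median was 0.06. Socs3, the feedback inhibitor, had 13.1, 10.2 and 12.7 CPM at day 7 and 27.3, 25.8 and 21.0 CPM at day 56 (log2 fold change 1.02, SE 0.14, adjusted p = 0.0039). Every day 56 library was above every day 7 library, and the call held whichever library was left out. The receptor genes Il6r and Il6st were not called, with 63.7, 73.5 and 69.5 CPM at day 7 and 128, 90.0 and 72.0 CPM at day 56 for Il6r (log2 fold change 0.47, SE 0.19, adjusted p = 0.20) and -0.10 for Il6st (adjusted p = 0.71). Stat3 had 327, 301 and 317 CPM at day 7 and 332, 297 and 297 CPM at day 56 (log2 fold change -0.04, SE 0.08, adjusted p = 0.80).

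Among receptors of related cytokines Lifr, the receptor of leukemia inhibitory factor, had 233, 223 and 229.8 CPM at day 7 and 356, 306 and 375 CPM at day 56 (log2 fold change 0.58, SE 0.09, adjusted p = 0.0069), and Osmr, the oncostatin M receptor, had 32.0, 28.5 and 24.9 CPM at day 7 and 14.6, 20.4 and 18.3 CPM at day 56 (log2 fold change -0.69, SE 0.15, adjusted p = 0.025). Pias3, an inhibitor of Stat3, changed by -0.35, adjusted p = 0.031. Lifr, whose transcript is long, kept its call whichever library was left out, while Osmr and Pias3 lost theirs in 3 and 6 of the 6 fits. Tnf is the remaining gene that rose, but it had 1, 0 and 1 counts at day 7 and 41, 101 and 46 counts at day 56 and was as near 0 in the day 7 WT libraries, so its change cannot be told apart from a change of table.

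Acute phase and complement genes fell more often than they rose, 5 of 26 against 1. These are 19.2% and 3.85%, against 4.78% and 3.65% of all genes. C6, a component of the complement pore, had 372, 417 and 170.4 CPM at day 7 and 53.3, 31.9 and 27.3 CPM at day 56 (log2 fold change -3.11, SE 0.45, adjusted p = 0.016). Serpina1, the antiprotease alpha-1 antitrypsin, had 69.3, 60.1 and 79.7 CPM at day 7 and 33.6, 33.4 and 17.4 CPM at day 56 (log2 fold change -1.33, SE 0.25, adjusted p = 0.024), and Cfd, complement factor D, had 20.7, 13.2 and 19.3 CPM at day 7 and 9.19, 6.96 and 8.99 CPM at day 56 (log2 fold change -1.10, SE 0.19, adjusted p = 0.011). The complement genes C7 and C1r fell by less (-0.75 and -0.39), and the fibrinogen chain Fgg rose (0.71, adjusted p = 0.032). C5 had 67.5, 57.6 and 57.7 CPM at day 7 and 84.0, 94.8 and 57.6 CPM at day 56, with the days overlapping (log2 fold change 0.36, SE 0.18, adjusted p = 0.29). Cfd was called whichever library was left out, and the number that fell was 1 without day 7 library 1 or 2, 2 without day 7 library 3 and 3 without day 56 library 3.

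The difference between the genotypes was tested as the interaction of genotype and day over the 12 lung libraries. No gene passed at an adjusted p under 0.05 (0 of 13808, 1039 at an unadjusted p under 0.05, 45 by DESeq2, 0 by limma-voom), and the lowest adjusted p was 0.12. Socs3 was among the smallest p: its change was 1.02 in IL6KO and -0.29 in WT lung, an interaction of 1.33, SE 0.20, adjusted p = 0.12. WT lung had 19, 22.4 and 21.3 CPM at day 7 and 19.9, 15.2 and 16.1 CPM at day 56 for this gene, so the WT libraries were all above the IL6KO ones at day 7 and all below them at day 56. The fatty acid elongase Elovl7 had 14.8, 12.1 and 12.4 CPM at day 7 and 26.4, 23.4 and 17.6 CPM at day 56 in IL6KO and 49.5, 52.9 and 44.3 CPM at day 7 and 20.2, 27.9 and 29.4 CPM at day 56 in WT lung, an interaction of 1.70, SE 0.24, adjusted p = 0.12.

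The interaction was negative for 23 of 23 T cell, 18 of 19 Th1 and cytotoxic, 12 of 13 NK cell and 18 of 20 B cell genes, with medians of -0.76, -0.92, -1.13 and -0.60 against 0.00 over all genes, and 0 of these genes passed the adjusted test by edgeR. At an unadjusted p under 0.05 there were 9, 10, 7 and 7. Lymphocyte lists were not alone in this: the interaction was negative for 56 of 56 ribosomal protein genes, 40 of them at an unadjusted p under 0.05, with a median of -0.43. In the other direction, 28 of 31 cell division genes had a positive interaction, with a median of 0.37. Of the 31, 11 had an unadjusted p under 0.05 and 0 passed the adjusted test by edgeR. At day 7 the summed T cell level was 222, 206 and 179 CPM in IL6KO and 134, 180 and 183 CPM in WT lung. The summed B cell level was 166, 187 and 140 CPM in IL6KO and 133, 141 and 147 CPM in WT lung. Both sums thus overlapped between the genotypes at day 7. Prf1 is given as an example from the Th1 and cytotoxic list only. WT lung had 18.1, 27.3 and 26.1 CPM at day 7 and 71.0, 76.8 and 81.5 CPM at day 56, so that the WT day 56 libraries lay within the range of the IL6KO ones and the WT day 7 libraries were all below them (interaction -1.37, SE 0.27, adjusted p = 0.29). Ccl5, a chemokine of cytotoxic cells, had 53.7, 49.3 and 50.2 CPM at day 7 and 50.1, 77.3 and 57.6 CPM at day 56 in IL6KO and 16.9, 24.4 and 23.4 CPM at day 7 and 90.9, 67.3 and 62.9 CPM at day 56 in WT lung (interaction -1.5, SE 0.26, adjusted p = 0.18). Gzmk, granzyme K, gave an interaction of -1.62, SE 0.30, adjusted p = 0.24. For 3 further genes the levels of the genotypes were apart on both days. C5, 57.6 CPM or more in each IL6KO library, had 0.927, 1.5 and 3.53 CPM at day 7 and 3.08, 36.8 and 38.2 CPM at day 56 in WT lung. Adamts13, at most 2.38 CPM in IL6KO lung, had 16.2, 18.6 and 17.5 CPM at day 7 and 25.9, 13.6 and 12.7 CPM at day 56 in WT lung. Slpi had 6.56, 8.38 and 19.6 CPM at day 7 and 9.57, 10.9 and 13.6 CPM at day 56 in WT lung. The interactions of the 3 had adjusted p-values of 0.57, 0.71 and 0.94.

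**Figure D4:**
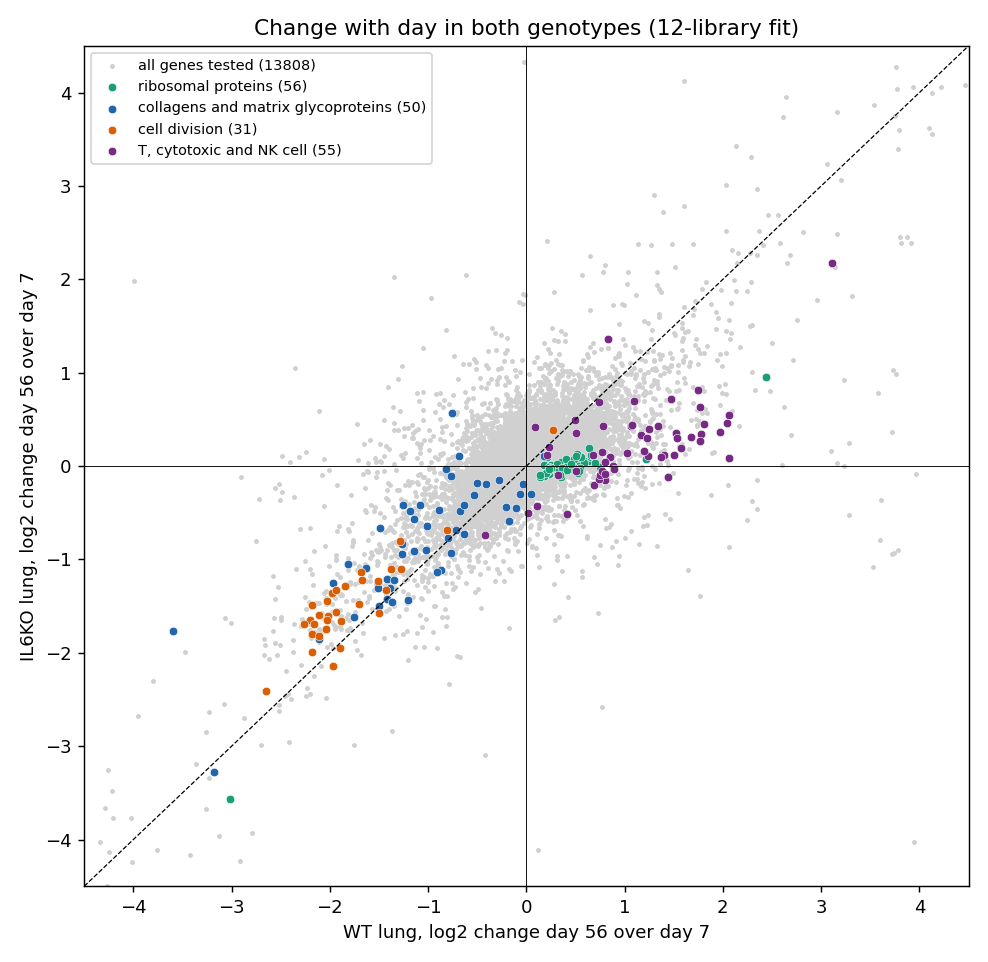
Log2 change from day 7 to day 56 of each gene in WT (horizontal) and IL6KO (vertical) lung from the 12-library fit, with the dashed line at equal change; 93 of 13808 genes lie beyond the axes. Most cell division and matrix genes lie at the lower left, and 28 of the 31 cell division genes lie above the line. Most T, cytotoxic and NK cell genes and the ribosomal protein genes lie to the right of 0 in WT lung. In the fit of the 6 IL6KO libraries the T cell and ribosomal protein lists had medians of 0.08 and -0.02. The Th1 and cytotoxic list had a median of 0.34 and the NK cell list 0.33.

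This comparison depended on 1 WT library. Without WT day 56 library 3 the interaction gave 575 genes, 396 higher and 179 lower, and among them were Socs3 (1.28, adjusted p = 0.0092), Bmpr2 (0.75, adjusted p = 0.015), Prf1 (-1.34, adjusted p = 0.038), 5 of the 19 Th1 and cytotoxic genes, 29 of the 56 ribosomal protein genes (all lower) and 7 of the 20 heart muscle genes (all higher). In the measures that follow, that library lay nearer to the IL6KO day 56 libraries, and WT day 56 libraries 1 and 2 stood apart from it. Leaving it out keeps libraries 1 and 2 alone as the WT day 56 group. The summed heart muscle level was 735, 801 and 505 CPM at day 7 and 72.4, 160.5 and 546 CPM at day 56 in WT and 621, 621 and 689 CPM at day 7 and 857, 672 and 418 CPM at day 56 in IL6KO lung. Ribosomal protein genes summed to 18450.5, 20318 and 20592 CPM at day 7 and 28107, 26818 and 22335 CPM at day 56 in WT and to 20018, 21472 and 22109.6 CPM at day 7 and 21522, 21553 and 19722 CPM at day 56 in IL6KO lung. The transcript length values by library, given above, also set libraries 1 and 2 apart from library 3. The part of these in the interaction was not tested. In IL6KO lung only Rpl9 among 56 ribosomal protein genes was called (by edgeR; DESeq2 called 1 higher and 1 lower), and only Mb, myoglobin, among 20 heart muscle genes (1.47, adjusted p = 0.014), a call lost without any 1 of the day 7 libraries. Immediate early genes, which cells induce soon after a stimulus, had 5 of 21 higher in IL6KO lung at day 56. This was 23.8% against 3.65% of all genes. Among the 5 were Dusp1 (1.36, adjusted p = 0.024) and Nr4a1 (1.73, adjusted p = 0.037), and 0 of the list were higher without any 1 of the day 7 libraries.

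Cry1, a repressor of the circadian clock, had 25.3, 21.4 and 25.8 CPM at day 7 and 13.3, 11.5 and 15.3 CPM at day 56 (log2 fold change -0.87, SE 0.13, adjusted p = 0.0060), the only call by edgeR among 19 clock genes, where DESeq2 called 3 higher and 1 lower. Fmo1, a flavin monooxygenase, and Gsta3, a glutathione transferase, rose among 30 detoxifying and antioxidant genes (1.04, adjusted p = 0.0049 and 0.93, adjusted p = 0.0094), where 4 rose (13.3% against 3.65% of all genes) and 1 fell. Without day 7 library 2 the detoxifying list had 1 that rose, without Gsta3, and without day 7 library 1 or 2 it had 0 that fell. Lrrc32, which docks latent TGF-beta on the surface of regulatory T cells, platelets and endothelium, had 45.6, 42.4 and 49.1 CPM at day 7 and 119, 94.7 and 77.1 CPM at day 56 (log2 fold change 1.07, SE 0.15, adjusted p = 0.0047), the only call by edgeR among 11 Treg and checkpoint genes. Of 17 genes of mesothelium, fat, nerve and lymph node 4 fell (23.5% against 4.78% of all genes), among them Msln, mesothelin (-0.85, adjusted p = 0.017). Their number was 0 without day 56 library 2, where Msln was not called either, and 2 without day 7 library 1 or 2. Genes of MHC class II (11), plasma cells (12), the Th17, Th2 and Tfh subsets (14) and mitochondrially encoded genes (12) had 0 calls by edgeR. At an unadjusted p under 0.05 they had 1 higher and 1 lower, 1 higher and 0 lower, 2 higher and 1 lower and 1 higher and 0 lower in this order. DESeq2 called, as higher and lower, 0 and 1, 0 and 0, 1 and 1 and 0 and 0.

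Of the 73 called genes that changed by more than 4 on the log2 scale in IL6KO lung, 61 changed past the same size in the same direction in WT lung. Il13ra1, a receptor chain for interleukin 13, had 0.595, 0.325 and 0.668 CPM at day 7 and 148, 145 and 149.8 CPM at day 56, and the WT libraries were at 1.64, 0.228 and 2.38 CPM at day 7 and 145, 143 and 153 CPM at day 56. The tubulin chaperone Tbcb and the methylosome protein Wdr77 rose by 6.31 and 5.82. The chaperone Hsp90aa1 had 12114, 10844 and 10432 counts at day 7 and 0, 0 and 33 counts at day 56, and Selenbp1, a selenium-binding protein, had 225, 227 and 289 CPM at day 7 and 0.964, 2.18 and 2.47 CPM at day 56. Ribosomal protein gene Rpl9 had 394, 475 and 437 CPM at day 7 and 31.5, 36.7 and 42.2 CPM at day 56, apart from the other 55 of its list. Omd, the small matrix proteoglycan osteomodulin, rose by 5.62 in IL6KO and by 10.31 in WT lung. For changes of this size a difference in what the day 7 and day 56 tables count under a symbol cannot be told apart from a difference between the days.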

How the data were processed

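RNA-seq was run on whole lung, per the labels. The authors deposited gene-level read counts, whole numbers per gene symbol that were not normalized, as the values of the files show, in 1 table for each day. RNA was taken in Trizol and cleaned with a column kit with DNase, per the labels' protocols. The submitters' processing notes name the genome build GRCm38, a mouse build, although the lung samples are labelled as rat, and no source used here names the counting tool or the annotation. The 6 IL6KO libraries held 16355574 to 19818902 counts. Genes with few counts have correspondingly wide errors, and 3 counts, the level used as a bound where a group had 0, correspond to 0.151 to 0.183 CPM.

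Symbols in both tables were kept, less the 57 named above, and a low-count filter (filterByExpr) and TMM scaling were applied. The main test was edgeR's quasi-likelihood test (edgeR 4.0.16, R 4.3.3). Its p-values were adjusted by the Benjamini-Hochberg method across every gene in the fit, with a threshold of 0.05. SE were taken as the absolute log2 fold change divided by the square root of the F value of that test. WT values and the interaction came from 1 fit of 12 libraries. Alternatives used DESeq2 1.42.0, limma-voom (limma 3.58.1), other scalings and filters, a replicate block, a minimum change, and each library left out. The procedure was tested on simulated counts. Genes were named by rule: a fixed set, up to 4 members of each of 49 lists with the smallest p and members that make up counts of 5 or fewer, the 10 largest changes per direction among non-overlapping genes of at least 1 CPM, and the 5 smallest interaction p-values per direction; the text describes some of the genes so named, Sftpc was added as a tissue marker, and 1 gene is not reported here. Members, lists and rule were chosen with earlier results of these data known. Transcript lengths are those of the longest mouse protein-coding transcript of the same symbol (GENCODE vM21), and the values by library used log2(CPM + 1). Promoters came from RefSeq's GRCr8 annotation by symbol.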

Additional observations from a re-analysis of the deposited data

Results flagged for a closer look

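Counts of symbols present in only 1 of the lung tables lie outside the comparison. They held 7.62%, 6.05% and 6.30% of all counts in the IL6KO day 7 libraries and 5.13%, 5.16% and 5.53% in the IL6KO day 56 libraries, so the shares did not overlap between the days. Each table had 1851 such symbols. Among them 395 pairs were an older and a newer name of the same gene; joining them added 324 tested genes, of which 8 were higher and 9 lower at day 56. Ctgf, listed as Ccn2 in the other table, the connective tissue growth factor of scarring tissue, was among those joined and was not called (log2 fold change -0.88, adjusted p = 0.40).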

How the results depend on the processing

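For IL6KO lung the count of 1141 was 655 with the replicate number as a block and 127 when a log2 change of at least 1 was tested, and ran from 454 to 1100 when 1 library was left out; DESeq2 gave 1497 and limma-voom 1118. The same numbers do not pair these samples (correlations of -0.14, 0.07 and -0.10 between the days), and no paired reading is made of the block. The block kept 101 of 150 named calls and reversed 0. In WT lung the count of 1962 ran from 1155 to 3594 when 1 library was left out, 3594 without WT day 56 library 3. The interaction had 0 genes by edgeR (also 0 with the block), 45 by DESeq2 and 0 to 575 with 1 library left out. Of 150 named calls 81 held whichever library was left out. For the named genes, and the interaction of some of them, 4053 values under the alternatives stayed on the same side of the threshold. Another 444 lost and 76 gained the call. Of values called in the main fit or the alternative 0 reversed, and changes of direction between uncalled values were not counted. Joining renamed symbols, which gave 1151, and the interaction counts by list without WT day 56 library 3 were chosen after the data had been seen. With 3 libraries a group and 1 table a day, the comparison cannot tell day from table, and low genes are tested with little power.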

Other observations

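Genes outside the rule, chosen after their values were seen, extend the vascular and matrix groups. Dll4, the Notch ligand of arterial and sprouting endothelium, had 24.5, 36.8 and 42.2 CPM at day 7 and 155, 216 and 207 CPM at day 56 in IL6KO lung (log2 fold change 2.47, SE 0.22, adjusted p = 0.00070), with no overlap between the days. Esm1, an endothelial proteoglycan of sprouting vessels, had 4.29, 9.11 and 8.74 CPM at day 7 and 38.9, 61.2 and 21.6 CPM at day 56 (log2 fold change 2.45, SE 0.48, adjusted p = 0.036), and Tmem100, an endothelial gene of the BMP pathway, had 243, 248 and 239.7 CPM at day 7 and 469, 554 and 576 CPM at day 56 (log2 fold change 1.11, SE 0.10, adjusted p = 0.00028). Apold1, an early response gene of endothelium, changed by 1.21, adjusted p = 0.0021. The days did not overlap for any of these 4 genes, and all 4 were called in WT lung in the same direction (3.16, 3.81, 1.21 and 1.22).

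Further genes chosen after their values were seen encode proteins of basement membranes. Lamb1 and Lamc1, chains of the laminins, changed by -0.99, adjusted p = 0.0022 and by -0.93, adjusted p = 0.00074 in IL6KO lung. Nid1, nidogen, which links laminin to collagen IV, had 366, 383 and 334 CPM at day 7 and 129, 138 and 201 CPM at day 56 (log2 fold change -1.23, SE 0.17, adjusted p = 0.0042), and its relative Nid2 changed by -1.23, adjusted p = 0.00055. Of genes of dividing cells outside the lists, Tk1, the thymidine kinase, had 29.2, 31.9 and 25.5 CPM at day 7 and 9.32, 11.6 and 11.1 CPM at day 56 (log2 fold change -1.45, SE 0.13, adjusted p = 0.00037), and the mitotic gene Cdca8 changed by -1.47, adjusted p = 0.00039. Nr1d1, a repressor of the circadian clock, had 17.2, 29.5 and 17.9 CPM at day 7 and 264, 77.9 and 25.8 CPM at day 56 (log2 fold change 2.49, SE 0.97, adjusted p = 0.23), so that the day 56 libraries differed more among themselves than the day 7 libraries.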
